A study of Rattus norvegicus with 24 samples.

Results

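The 183 gene IDs described here fell to at most 50% of their uninduced level when IRE1α was switched on for 24 h, stayed closer to the induced than to the uninduced level when PAIR1 was given, and stood near the uninduced level when KIRA9 was given. They were chosen by measured values, from 26689 IDs, on their mean counts per 1000000 counts (CPM) in 4 groups of libraries at 24 h. A member had an uninduced mean of at least 5 CPM and an induced mean of at most 50% of it. PAIR1 cells had to retain at least 50% of the fall from the uninduced to the induced mean, and KIRA9 cells between -20% and 30%, where a negative value is a level above the uninduced mean. Of 847 IDs lowered that far, 183 (21.6%) met the limits on both compounds, and 8 IDs were left out by the rule, of which 0 met the limits. The 24 h levels therefore chose the members and are given as a description without tests. The tests compare only groups of 4 h libraries, which the rule did not use. Their filter and error estimates come from a fit to all 24 libraries, including those that chose the members.

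IRE1α is a sensor in the membrane of the endoplasmic reticulum that carries a kinase and an RNase domain. When unfolded proteins build up it cuts the XBP1 transcript, whose spliced form encodes a transcription factor for folding and secretion genes, and under stronger activation it also cuts other transcripts, many of them bound to the reticulum, which is known as regulated IRE1-dependent decay. In pancreatic beta cells, which make large amounts of secreted protein, strong and lasting activation is known for the loss of beta cell transcripts and for cell death. Both compounds bind the kinase domain: KIRA is the name of a class of kinase inhibitors that shut down the RNase, and PAIR that of partial antagonists, which the series title describes as separating the outputs of the RNase.

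All samples were INS1 cells, a rat insulinoma line that serves as a model of beta cells, and they carried a doxycycline-inducible mouse IRE1α transgene on top of the cells' own gene. The uninduced groups had vehicle without doxycycline, the induced groups had both, and the compound groups had doxycycline together with PAIR1 or KIRA9. RNA was taken 4 h or 24 h after doxycycline, with 3 libraries in each of the 8 groups. The labels give no dose for either compound, no promoter or clone for the transgene, and no uninduced cells with a compound, and they do not say whether the 3 libraries of a group came from separate cultures, so the p-values below reflect the spread among these libraries, which may be technical. An effect of doxycycline itself and of the transgene cannot be told apart.

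Library totals ran from 12.6 to 23.8 × 1000000 counts, and the lowest count of any member in any library was 11. The IDs could not be paired with gene names here (0 of 26689 matched the table of names), so the 21 gene lists, the beta cell markers and the transgene were not read, and what the members encode is not described. Only 4 of the IDs are printed. A set of 6 libraries stood apart: 41 IDs, each higher in these 6 than in any of the other 18, took 0.666 to 0.744% of their counts and 0.0705 to 0.0853% elsewhere. They were replicate 2 of the uninduced cells at either time, replicate 3 of the induced cells at 4 h, replicates 1 and 2 of the induced cells at 24 h and replicate 1 of PAIR1 at 24 h. None of these IDs was a member (0 of 41), which the definitions fix. An ID higher in replicates 1 and 2 of the induced cells at 24 h than in all KIRA9 libraries cannot meet the rule. The 0 therefore does not show whether the members are free of this difference between libraries. The counts of calls without the 6 libraries are given beside those at 4 h. For the 6 induced vehicle libraries the time characteristic contradicts the title. The title was used, and the column names of the deposited counts give the same times as the titles. With the other assignment only 2 IDs would meet the rule. That count does not bear on the choice, since the rule was built on the times in the titles.

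At 24 h the members formed a graded series: induced lowest, PAIR1 in between, KIRA9 just under the uninduced cells. The members together took 2.25%, 2.29% and 2.31% of the counts in the 3 uninduced libraries. In induced libraries they took 0.623%, 0.614% and 0.622%. With PAIR1 they took 1.24%, 1.26% and 1.20%, and with KIRA9 2.01%, 1.99% and 2.00%. The 4 groups did not overlap in this share, and the libraries of a group lay close together.

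The typical member stood at 31.7% of its uninduced mean after induction alone, at 58.0% with PAIR1 and at 88.3% with KIRA9 (medians over 183 members). The fall with induction ran from 2.01-fold to 9.47-fold with a median of 3.15-fold, and was under 3-fold in 84 members, 3-fold to 4-fold in 51, 4-fold to 8-fold in 44 and deeper in 4. The median percent of the fall retained, taken library by library, was 61.5%, 60.7% and 63.0% with PAIR1 and 15.9%, 17.6% and 16.4% with KIRA9. All 3 PAIR1 libraries lay above all 3 induced libraries in 177 of 183 members, against 26.1% of all 13760 IDs tested. All 3 PAIR1 libraries lay below all 3 KIRA9 libraries in 177 members, against 14.3% of all IDs. All 3 KIRA9 libraries lay below all 3 uninduced libraries in 96 members (17.6% of all IDs) and above them in 2 (17.3% of all IDs). The same libraries chose the members, and the limits for KIRA9 reach further below the uninduced level than above it, so the counts are largely set by the rule and nothing is read from them against the shares of all IDs. The name "restored by KIRA9 only" is looser than the rule, which lets in IDs that PAIR1 returned by up to 50% of the fall and IDs that KIRA9 left short by up to 30%.

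**Figure D1:**
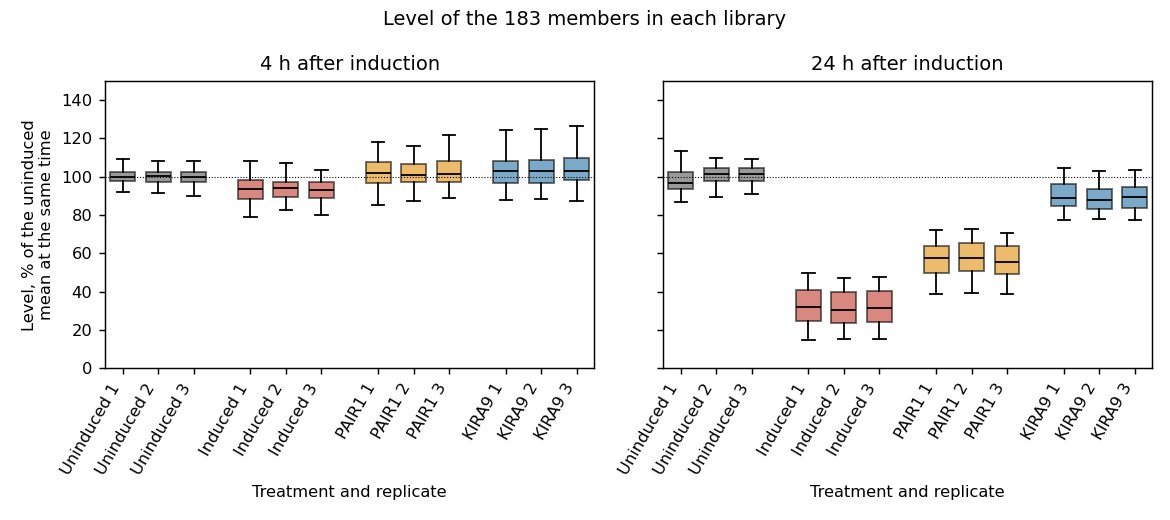
Level of the 183 members in each of the 24 libraries, as a percent of each member's uninduced mean at the same time (boxes: 25th to 75th percentile, line: median, whiskers: 5th to 95th percentile; left 4 h, right 24 h). At 24 h the library medians are 30.5 to 32.2% for induced, 55.5 to 57.8% for PAIR1 and 87.9 to 89.4% for KIRA9 cells, while at 4 h they are 93.1 to 94.1%, 101 to 102% and 103%.

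The members differed among themselves in how much of the fall PAIR1 left. The retained percent with PAIR1 lay from 50% to below 60% in 85 members, from 60% to below 70% in 49, from 70% to below 80% in 36 and higher in 13, up to 92.5%. With KIRA9 it was below 0% in 18 members, which means a mean above the uninduced one, from 0% to below 10% in 35, from 10% to below 20% in 60 and higher in 70. The limits at 50% with PAIR1 and 30% with KIRA9 had IDs close by on either side, while the lower KIRA9 limit lay in a gap, with 2 IDs beyond it among those past the PAIR1 limit. The 2 members nearest the PAIR1 limit retained 50.01% and 50.2%, and the 2 IDs just outside 49.8% and 49.8%. At the upper KIRA9 limit the nearest members retained 29.7% and 29.4%, and the nearest IDs outside 30.1% and 30.2%. At the lower KIRA9 limit the nearest members stood at -14.3% and -12.5% and the nearest outside at -32.2% and -33.5%. At the limit on the induced level the nearest members stood at 49.8% and 49.6% of the uninduced mean and the nearest outside at 50.4% and 50.5%, and at the limit on the uninduced mean they stood at 5.13 and 5.19 CPM inside and 4.98 and 4.94 CPM outside. Of the lowered IDs that did not become members, 152 retained at least 50% with PAIR1 but over 30% with KIRA9, and 378 met the KIRA9 limits but retained less than 50% with PAIR1.

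**Figure D2:**
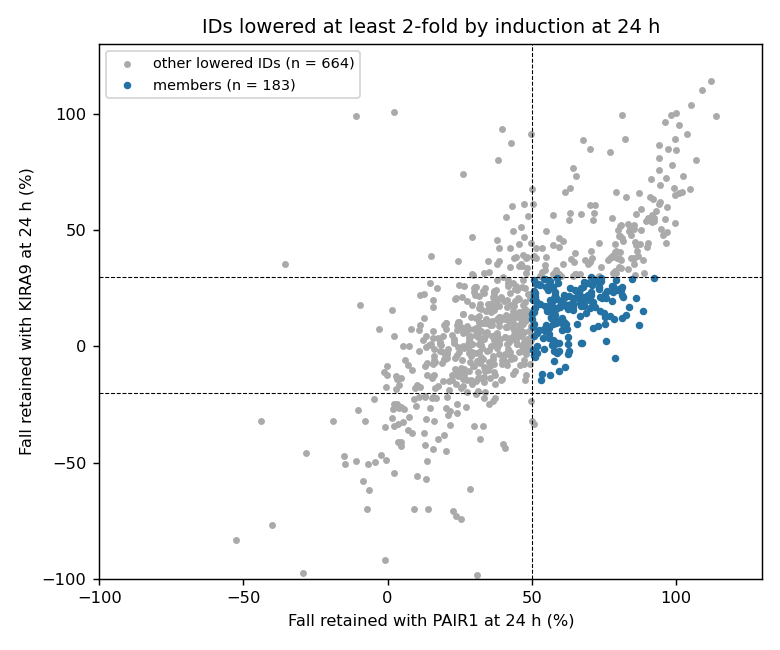
Percent of the 24 h fall retained with PAIR1 (x axis) and with KIRA9 (y axis) for the 847 lowered IDs, with the 183 members in blue, the other 664 in grey and the limits of the rule dashed (7 IDs lie beyond the axes). The members are the lower right part of a cloud that runs on across these 2 limits, with gaps of under 1 percentage point at 50% PAIR1 and 30% KIRA9.

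The uninduced level of the members spanned 5.13 to 2223 CPM with a median of 56.8 CPM, with 14 members below 10 CPM, 107 from 10 to below 100 CPM, 60 from 100 to below 1000 CPM and 2 above. The first of these 2, ENSRNOG00000043387, had the highest uninduced level and 1 of the deepest falls. It stood at 2269, 2183 and 2216 CPM in uninduced cells at 24 h and at 239, 250 and 237 CPM in induced cells. With PAIR1 it stood at 834, 862 and 784 CPM, and with KIRA9 at 1858.6, 1828.5 and 1818.1 CPM. The 4 groups did not overlap, and the induced mean was 9.19-fold below the uninduced one. At 4 h the same ID stood at 2112 ± 30 CPM in uninduced, 2031 ± 27 in induced, 2119 ± 21 in PAIR1 and 2097 ± 45 CPM in KIRA9 cells (SD, n = 3 each), and it was called in 0 of 6 contrasts by edgeR's quasi-likelihood test.

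ENSRNOG00000030019, the member with the second highest uninduced level, stood at 1182, 1161 and 1186 CPM in uninduced and at 348.4, 356.2 and 367.9 CPM in induced cells at 24 h. With PAIR1 it stood at 696, 704 and 676 CPM and with KIRA9 at 946, 963 and 950 CPM, so that KIRA9 cells also lay wholly below uninduced cells. At 4 h it was the uninduced group, at 1097, 1120 and 1101 CPM, that lay highest. KIRA9 cells, at 1018, 992 and 1026 CPM, were lower than uninduced cells by a log2 change of -0.13 ± 0.02 (SE; adjusted p = 0.0011 by edgeR). The differences of the induced and PAIR1 groups from uninduced cells at 4 h were -0.071 and -0.059 on the log2 scale and were not called (adjusted p = 0.50 and 0.26 by edgeR).

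The first question put to groups that the rule did not use was whether these IDs had already moved 4 h after induction. Most estimates were slightly negative, and few passed the test. In induced cells 157 of 183 members had a log2 estimate below 0 relative to uninduced cells, with a median of -0.087 (quartiles -0.15 and -0.037), beside a median of 0.0023 over all 13760 IDs tested. By edgeR's quasi-likelihood test, adjusted over all IDs, 5 members were lower (0.262% of all IDs were called lower) and 0 were higher (0.0363%; 0.298% in either direction). At an unadjusted p below 0.05 by edgeR, 51 members were lower and 0 higher, beside 424 lower and 409 higher among all 13760 IDs. DESeq2 called 13 members lower and 0 higher, and its calls among all IDs were not counted. The 5 called members were lower by log2 changes of -0.21 to -0.40. All 3 induced libraries lay below all 3 uninduced libraries in 81 members (6.6% of all IDs) and above them in 2 (5.06%). The members' share of counts was 2.15%, 2.16% and 2.17% in uninduced and 2.04%, 2.05% and 2.04% in induced libraries at 4 h.

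The number of calls for induction at 4 h depended on single libraries and on the method. It was 3 without induced replicate 1, 3 without induced replicate 2, 3 without uninduced replicate 1 and 2 without uninduced replicate 2. It was 4 without the 6 libraries that stood apart, and 0 in a fit of the 6 compared libraries alone. The members called also changed. Only 2 of the 4 without the 6 libraries were called in the main fit. Without induced replicate 3, 5 were called, of which 3 were called in the main fit.

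Both compounds raised members relative to induced cells at 4 h, by small steps. With PAIR1, 36 of 183 members were higher (2.31% of all IDs) and 0 were lower (0.887%; 3.2% in either direction), and the median log2 change over the members was 0.12, beside -0.0013 over all IDs. At an unadjusted p below 0.05 by edgeR, 75 members were higher and 0 lower, beside 1031 higher and 774 lower among all 13760 IDs. DESeq2 called 42 members higher and 0 lower. The called rises had log2 changes of 0.14 to 0.63 with a median of 0.25, or 18.5%. With KIRA9, 52 members were higher (6.01% of all IDs) and 1 was lower (5.66%; 11.7% in either direction), with a median log2 change over the members of 0.13 beside -0.0023 over all IDs, and the called rises ran from 0.11 to 0.67 with a median of 0.26. With KIRA9 83 members were higher and 4 lower at an unadjusted p below 0.05 by edgeR, beside 1618 higher and 1626 lower among all IDs. DESeq2 called 51 members higher and 1 lower with KIRA9. All 3 PAIR1 libraries lay above all 3 induced libraries in 91 members (9.93% of all IDs), and all 3 KIRA9 libraries in 96 (14.1%). Both comparisons use the same 3 induced libraries, so the 2 counts are not independent of each other or of the induction estimate. Without PAIR1 replicate 3 at 4 h, 21 members were called with PAIR1. Without the 6 libraries that stood apart 28 members were called with PAIR1 and 41 with KIRA9.

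ENSRNOG00000005841 had the smallest adjusted p of any member with either compound against induced cells at 4 h, and was chosen after its values were seen. It stood at 140, 152 and 146 CPM in uninduced cells and at 125, 125 and 115 CPM in induced cells at 4 h. With PAIR1 it stood at 168, 159 and 158 CPM and with KIRA9 at 184, 179 and 177 CPM. The order at 4 h was induced, uninduced, PAIR1 and KIRA9, and the 4 groups did not overlap. Against induced cells the log2 change was 0.41 ± 0.04 (SE) with PAIR1 (adjusted p = 1.7e-06 by edgeR) and 0.56 ± 0.04 with KIRA9 (adjusted p = 2.3e-09 by edgeR). The fall with induction was -0.26 ± 0.04 (adjusted p = 0.0036 by edgeR) and was no longer called without uninduced replicate 2 (-0.22), without the 6 libraries that stood apart (-0.19) or in a fit of the 6 compared libraries alone (-0.26). At 24 h PAIR1 cells stood at 74.7, 74.3 and 69.2 CPM, between the induced libraries at 37.6, 36.3 and 34.2 CPM and the KIRA9 libraries at 138, 137 and 138 CPM. Uninduced cells stood at 131, 141 and 134 CPM, a range that holds the KIRA9 values.

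**Figure D3:**
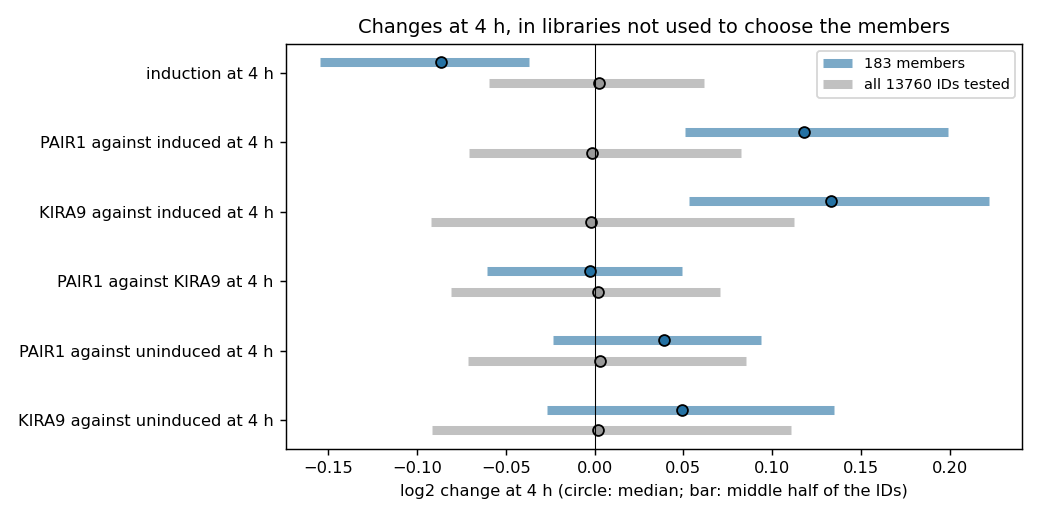
Log2 changes at 4 h in 6 contrasts for the 183 members (blue) and for all 13760 IDs tested (grey), with circles at the median and bars from the 25th to the 75th percentile. The members' median is -0.087 for induction, 0.12 for PAIR1 and 0.13 for KIRA9 relative to induced cells, and -0.0024 between the compounds.

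The next comparison asked whether the compounds, which the rule sets apart at 24 h, differed over these IDs at 4 h. PAIR1 and KIRA9 libraries share no sample with the rule at this time. Of 183 members, 2 were higher with PAIR1 than with KIRA9 (0.821% of all IDs) and 1 was lower (1.24%, and 2.06% in either direction). By edgeR 25 members had an unadjusted p below 0.05, of which 16 were lower and 9 higher. Among all 13760 IDs 1695 did, of which 780 were lower and 915 higher, so no difference particular to the members is read from the 25. DESeq2 called 5, of which 2 were higher, and edgeR also called 5 in a fit of the 6 compared libraries alone and 4 without the 6 libraries that stood apart. On the log2 scale the level with PAIR1 minus that with KIRA9 had a median of -0.0024 and quartiles of -0.061 and 0.049, and 95 members lay below 0 and 88 above. The median SE of 1 member's difference was 0.064. A miss of the threshold does not show equal levels. The 95% interval of the difference (unadjusted, 16 degrees of freedom) lay wholly above -0.25 in 143 of 183 members, and in the other 40 it did not exclude a level with PAIR1 lower by that much. For comparison, the mean CPM with PAIR1 divided by that with KIRA9 had a median log2 value of -0.65 at 24 h, from -0.21 to -1.60, where the rule fixed the sign. The doses are not given, so these are differences between the treatments as applied.

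**Figure D4:**
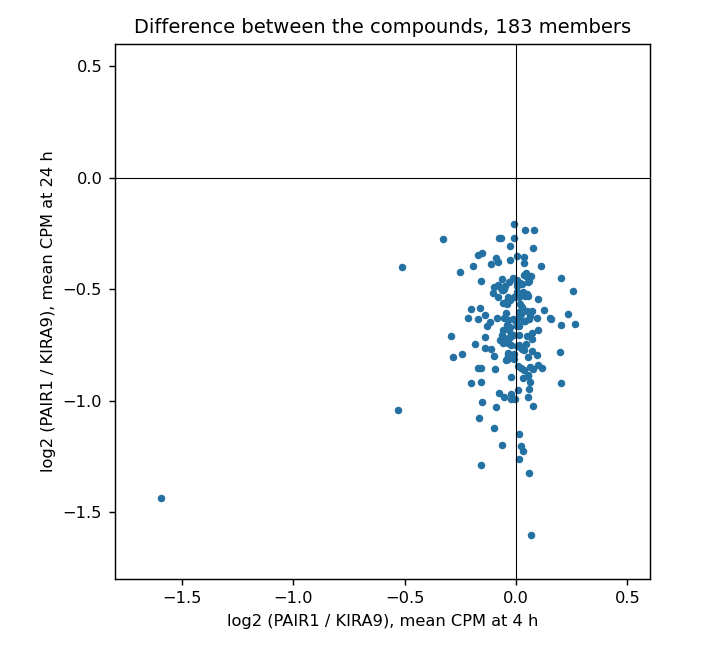
Log2 ratio of mean CPM with PAIR1 to that with KIRA9 for each of the 183 members at 4 h (x axis) and at 24 h (y axis). The points are centred near 0 on the x axis (median -0.008) and all lie below 0 on the y axis, as the rule requires, with a median of -0.65.

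The most negative difference at 4 h belonged to a member of low level, at rank 182 of 183 by uninduced CPM. It stood at 1.83, 2.16 and 1.53 CPM with PAIR1 and at 7.77, 1.39 and 7.49 CPM with KIRA9. The log2 difference of -1.60 ± 0.85 (SE) was not called (adjusted p = 0.48 by edgeR), and the KIRA9 libraries differed more from each other than the group means did.

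ENSRNOG00000009414, chosen after its values were seen, was the 1 member that edgeR called lower at 4 h in the PAIR1 libraries than in the KIRA9 libraries. It stood at 53.2, 53.2 and 51.5 CPM in uninduced and 49.97, 47.5 and 49.3 CPM in induced cells. With PAIR1 it stood at 64.4, 62.0 and 64.2 CPM and with KIRA9 at 82.4, 78.4 and 72.9 CPM. All PAIR1 libraries lay above both vehicle groups, and all KIRA9 libraries above all PAIR1 libraries. The log2 difference between the compounds was -0.29 ± 0.06 (SE; adjusted p = 0.0090 by edgeR). It lost the call without KIRA9 replicate 1 (-0.24) and without PAIR1 replicate 2 (-0.27). Against induced cells the log2 change was 0.38 ± 0.06 with PAIR1 (adjusted p = 0.00058 by edgeR) and 0.67 ± 0.06 with KIRA9 (adjusted p = 4.4e-08 by edgeR). At 24 h the KIRA9 libraries stood at 63.5, 58.6 and 65.8 CPM and overlapped with the uninduced libraries at 62.7, 65.0 and 70.4 CPM, while PAIR1 stood at 38.9, 36.9 and 38.9 CPM and induced cells at 23.9, 19.9 and 20.4 CPM.

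**Figure D5:**
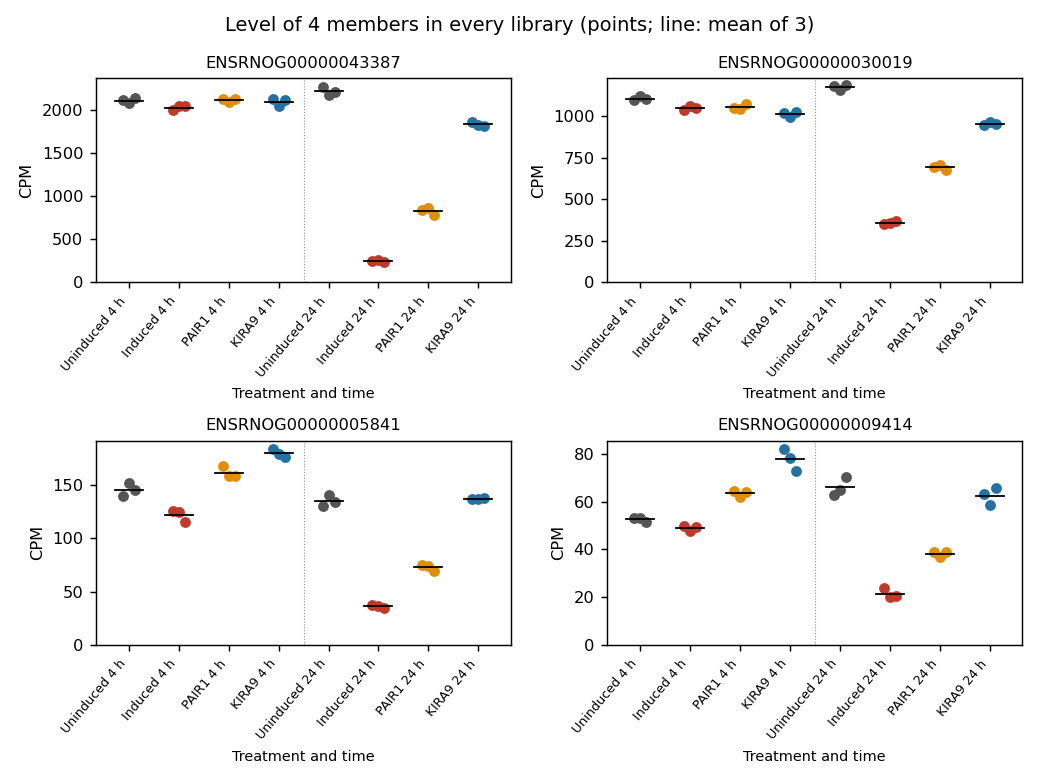
CPM of the 4 printed members in every library by treatment and time (points: 3 libraries, line: their mean, axes from 0). At 24 h each shows induced lowest and PAIR1 between induced and KIRA9, while at 4 h the groups of the upper pair lie close together and in the lower pair KIRA9 lies highest.

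Compared with uninduced cells at 4 h, more members were called with KIRA9 than with PAIR1, as was so among all IDs. With PAIR1, 3 members were higher (1.56% of all IDs) and 0 lower (0.988%; 2.55% in either direction), and the median log2 difference was 0.039. At an unadjusted p below 0.05 by edgeR, 31 members were higher and 11 lower, beside 1063 higher and 867 lower among all 13760 IDs. DESeq2 called 8 members higher and 0 lower. With KIRA9, 16 members were higher (5.44% of all IDs) and 9 lower (5.49%; 10.9% in either direction), with log2 changes from 0.13 to 0.57 and from -0.11 to -0.38 and a median over all members of 0.049. With KIRA9 34 members were higher and 16 lower at an unadjusted p below 0.05 by edgeR, beside 1558 higher and 1594 lower among all IDs. DESeq2 called 16 members higher and 11 lower with KIRA9. By edgeR's adjusted p, the 3 called higher with PAIR1 (1.64% of members) and the 9 called lower with KIRA9 (4.92%) are shares close to those of all IDs. The 16 called higher with KIRA9 are 8.74% of members. Whether that share differs from the 5.44% of all IDs was not tested. ENSRNOG00000009414 was higher than in uninduced cells with PAIR1 by 0.28 ± 0.06 (adjusted p = 0.012 by edgeR) and with KIRA9 by 0.57 ± 0.06 (adjusted p = 6.1e-07 by edgeR). The first of these lost its call without PAIR1 replicate 1 (0.27), PAIR1 replicate 3 (0.27) or uninduced replicate 3 (0.27). ENSRNOG00000005841 was higher with KIRA9 by 0.31 ± 0.04 (adjusted p = 2.5e-05 by edgeR), and its difference with PAIR1, 0.16 ± 0.04, was not called (adjusted p = 0.053 by edgeR). With KIRA9, 16 members were called without KIRA9 replicate 1 and 16 without KIRA9 replicate 3, in place of 25. With PAIR1, 1 was called without PAIR1 replicate 3. Without the 6 libraries that stood apart 3 were called with PAIR1 and 18 with KIRA9.

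The members that kept more of the fall under PAIR1 at 24 h had larger median changes at 4 h in the 3 contrasts with induced cells, as a description, but not in each of the others. The median log2 change with induction was -0.073 in the 85 members that retained below 60%, -0.094 in the next 49, -0.12 in the next 36 and -0.16 in the 13 that retained 80% or more. In the same order the median log2 change with PAIR1 against induced cells was 0.080, 0.13, 0.19 and 0.21, and with KIRA9 0.098, 0.13, 0.16 and 0.27. Against uninduced cells the medians had no such order with PAIR1, at 0.017, 0.023, 0.075 and -0.0031, and with KIRA9 they were 0.040, 0.026, 0.063 and 0.19. Between the compounds they were 0.0084, -0.0090, -0.015 and -0.018. Spearman's rho over the 183 members between the retained percent with PAIR1 and the induction change at 4 h was -0.29 (Pearson's r = -0.21). The members share all libraries and are not replicates, and the 4 h changes against induced cells share the induced libraries with the induction change.

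The calls for either compound against induced cells at 4 h were more numerous among members with high counts, whose error is smaller. In 3 parts of 61 members by their mean over all 24 libraries, the median SE of a log2 change with KIRA9 against induced cells was 0.043, 0.063 and 0.11, and 23, 17 and 12 members were called higher. With PAIR1 19, 12 and 5 were called higher. The median log2 changes were 0.098, 0.13 and 0.19 with KIRA9 and 0.092, 0.138 and 0.135 with PAIR1, in the same order. What sets the number of calls in each part was not tested. Between the compounds the 3 calls all lay in the middle part.

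Beside the members stand the other 664 IDs that induction lowered at least 2-fold at 24 h. Of these, 27 (4.07%) were called lower for induction at 4 h, 76 (11.4%) higher with PAIR1 and 123 (18.5%) higher with KIRA9 against induced cells, with median log2 changes of -0.040, 0.052 and 0.042. The members had 2.73%, 19.7% and 28.4% in the same comparisons. The 664 include 145 IDs that stood between -20% and 30% with both compounds at 24 h. Of these 145, 0 were called lower for induction at 4 h (4 had an unadjusted p below 0.05). Against induced cells 3 (2.07%) were higher with PAIR1 and 12 (8.28%) with KIRA9, beside 2.31% and 6.01% of all IDs. The medians of the 145 were -0.0098, 0.031 and 0.0079. Called lower with KIRA9 against induced cells were 27 of the 664, 6 of the 145 and 1 member. Whether these sets differ at 4 h was not tested.

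Uninduced cells alone changed little in the members between the times. The uninduced mean at 24 h was 105% of that at 4 h at the median, with quartiles of 95.9 and 113% and the extremes at 64.9 and 182%. This is a description, since the uninduced 24 h level entered the rule.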

How the data were processed

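The deposited table held raw read counts per Ensembl gene ID for 24 libraries, made by the authors without normalization; HISAT2 and HTSeq are named in the submitters' processing notes. Their versions, the annotation, the build and strandedness are not given in the sources used here; overlapping, antisense or near-identical genes may share reads. Libraries came from poly(A)-enriched RNA, per the labels' protocols. Columns were matched to samples by name and title.

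Levels are CPM, counts over the library total. At 24 h this scale put the median of all tested IDs 0.14 (log2) higher in induced than in uninduced cells, and TMM scaling 0.0045. With TMM-scaled CPM 204 IDs met the rule, of which 170 were among the 183. Changes at 4 h come from edgeR 4.0.16 in R 4.3.3: filterByExpr at 10 counts, which kept 13760 IDs and all 183 members, TMM, 1 quasi-likelihood fit of 8 group means to all 24 libraries without a replicate block, and Benjamini-Hochberg adjustment over all IDs. Calls were made at an adjusted p below 0.05. DESeq2 1.42.0 was an alternative. For it and the other alternatives, calls were counted among the members only. Precision follows depth: 3 counts were 0.126 to 0.238 CPM. No replicate pair agreed within sampling noise (chi-square per degree of freedom 3.52 to 18.5).

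The members and lists were chosen with earlier results of these data known. The naming rule allowed, without gene names, only the 2 IDs with the highest uninduced 24 h level. The other 2 printed were chosen after their values were seen.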

Additional observations from a re-analysis of the deposited data

How the results depend on the processing

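With the time characteristic in place of the title, 2 IDs met the rule, with a median retained percent of 71.2% for PAIR1 and 8.81% for KIRA9, and of the 183 members 182 were called for induction at 4 h, and relative to induced cells 181 with PAIR1 and 183 with KIRA9; these calls use the induced libraries whose low values chose the members, so the rule fixed them. At an adjusted p below 0.01, 2 members were called for induction, 21 for PAIR1 against induced cells, and relative to uninduced cells 1 with PAIR1 and 14 with KIRA9. DESeq2 called 13 for induction, 5 between the compounds and 8 for PAIR1 against uninduced cells. With only the compared libraries fitted, 0 were called for induction and 5 between the compounds. Deviations of same-numbered libraries had correlations from -0.21 to 0.096, so the numbers were not taken as pairs. The best match was the own number in 18 of 36 checks, each among 3 libraries, which does not exclude a weak pairing. With a replicate block, 5 were called for PAIR1 against uninduced cells, and the other 5 counts stayed within 1.5 times. Leaving out each compared library in turn gave 2 to 5 calls for induction, 21 to 29 with PAIR1 and 39 to 48 with KIRA9 relative to induced cells, 2 to 3 between the compounds, and, relative to uninduced cells, 1 to 3 with PAIR1 and 16 to 21 with KIRA9. The rule gave 173 to 192 members without any 1 library at 24 h, of which 157 to 180 were among the 183, the fewest without an uninduced library (157 or 158). Without the 6 libraries that stood apart, an alternative chosen after seeing the data, it gave 185, of which 152 were among the 183, and a KIRA9 median of 16.2%. Of 130 alternative values for the 10 called changes of printed IDs, 122 kept the call, 8 lost it and 0 changed sign. The cause of these losses was not tested. The 122 include the values with the time characteristic in place of the title, whose outcome was set beforehand. Those values either use the induced libraries that chose the members or repeat the main value. Among the 61 members with the lowest mean level (3.70 to 30.6 CPM), the median SE of a log2 change was near 0.11. Small changes in them could be missed, though 12 were called higher with KIRA9 and 5 with PAIR1 against induced cells.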
